A study of Danio rerio with 6 samples.

Results

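The 3 zebrafish genes of the Nkx2.2 class that mark the most ventral neural progenitors beside the floor plate, nkx2.2a, nkx2.2b and nkx2.9, were followed through 6 RNA sequencing libraries. They were chosen by symbol and not by a threshold on their values, but with earlier results of these data known. They make up 3 of the 30677 gene symbols and 4 of the 54437 transcripts that were counted (2 transcripts of nkx2.2a and 1 each of nkx2.2b and nkx2.9). The cells were GFP-positive cells sorted from dissociated trunks of zebrafish embryos at 14 hours post fertilisation, after brain and tail had been dissected off. The genotype of every sample was WT apart from its reporter: TgBAC(nkx2.2a:memGFP), a membrane GFP under nkx2.2a regulatory sequence, TgBAC(olig2:GFP) or TgBAC(dbx1b:GFP), with 2 libraries each. The labels name no treatment. Each reporter is a bacterial artificial chromosome transgene, so GFP follows the regulatory sequence that the transgene carries. Line, form of GFP and sort coincide with the group and cannot be told apart from it. The labels do not say that the 2 libraries of a line came from separate pools of embryos, so p-values measure the spread between these libraries, which may be technical.

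Nkx2.2 proteins are homeodomain transcription factors that, in chick and mouse, act mainly as repressors through Groucho corepressors. Sonic hedgehog from the notochord and floor plate induces them in the p3 domain of the ventral neural tube, next to the floor plate, and cross-repression with dorsal factors such as Pax6 sharpens the upper border of the domain. The motor neuron progenitor domain (pMN), marked by olig2, lies just dorsal to p3. The p0 domain, marked by dbx1b, lies further dorsal. In the zebrafish spinal cord the Nkx2.2 class cells are also called the lateral floor plate and give rise to the ventral Kolmer-Agduhr neurons (KA″), which touch the central canal, and to V3 neurons. nkx2.2a and nkx2.2b are the zebrafish co-orthologues of the single mammalian Nkx2.2 gene, and nkx2.9 is the counterpart of mammalian Nkx2.9, which overlaps with Nkx2.2 in p3.

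Between 3254516 and 6933417 fragments per library were mapped to transcripts, 19.4% to 33.4% of all fragments. Before further scaling, 1 fragment was thus worth 0.144 to 0.307 CPM (counts scaled to a common library size). Levels below are CPM after TMM scaling, which corrects for library size and composition. Only where genes are set against each other are they given as FPKM, fragments per kilobase of transcript scaled by library size. The reporter genes themselves followed the sorts. nkx2.2a, whose regulatory sequence selected the first group, was highest there, olig2 stood at 220 and 125 CPM in olig2 cells against at most 70.5 CPM elsewhere, and dbx1b stood at 183 and 216 CPM in dbx1b cells against at most 49.3 CPM elsewhere. The level of nkx2.2a therefore checks the sort and is no independent finding about p3 cells, whereas nkx2.2b and nkx2.9 were not used to select any cell. All 3 genes passed the filter on low counts and were tested among 19129 genes.

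nkx2.2a, the gene behind the reporter, stood at 495 and 364 CPM in libraries 1 and 2 of nkx2.2a cells, at 8.22 and 26.5 CPM in those of olig2 cells and at 0.540 and 1.27 CPM in those of dbx1b cells. These levels rest on 3133 and 1203 fragments in nkx2.2a cells, 27 and 112 in olig2 cells, and 3 and 9 in dbx1b cells. The 3 sorts did not overlap, and the order was nkx2.2a cells, then olig2 cells, then dbx1b cells. Library 1 of the dbx1b cells was at the floor of 3 fragments that was set for each library. The mean was 429 ± 92.6 CPM for nkx2.2a cells, 17.4 ± 13.0 CPM for olig2 cells and 0.904 ± 0.515 CPM for dbx1b cells (SD, n = 2 each).

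nkx2.2b, the second Nkx2.2 co-orthologue, stood at 88.0 and 93.8 CPM in nkx2.2a cells, at 26.5 and 80.4 CPM in olig2 cells and at 0.720 and 9.58 CPM in dbx1b cells. The fragments behind these levels were 557 and 310 in nkx2.2a cells, 87 and 339 in olig2 cells, and 4 and 68 in dbx1b cells. The libraries of nkx2.2a cells were close to each other, and the higher olig2 library lay just under them, while olig2 library 1 and dbx1b library 1 were each far below the other library of their sort. The mean of nkx2.2b was 90.9 ± 4.1 CPM for nkx2.2a cells, 53.4 ± 38.1 CPM for olig2 cells and 5.15 ± 6.27 CPM for dbx1b cells (SD, n = 2 each). nkx2.2a and olig2 cells, neighbours in the order of means, did not differ beyond this spread.

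nkx2.9, the counterpart of mammalian Nkx2.9, had its highest mean in olig2 cells. It stood at 123 and 47.2 CPM in nkx2.2a cells, at 103 and 101 CPM in olig2 cells and at 0.180 and 2.96 CPM in dbx1b cells. The 2 olig2 libraries were nearly equal and lay between the 2 libraries of nkx2.2a cells, so these groups overlapped. Fragments numbered 776 and 156 in nkx2.2a cells, 337 and 427 in olig2 cells, and 1 and 21 in dbx1b cells. The single fragment in dbx1b library 1 has an exact 95% Poisson interval of 0.0253 to 5.57 fragments, which like every such interval covers counting error only. nkx2.9 averaged 84.9 ± 53.3 CPM for nkx2.2a cells, 101.9 ± 0.942 CPM for olig2 cells and 1.57 ± 1.97 CPM for dbx1b cells (SD, n = 2 each).

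**Figure D1:**
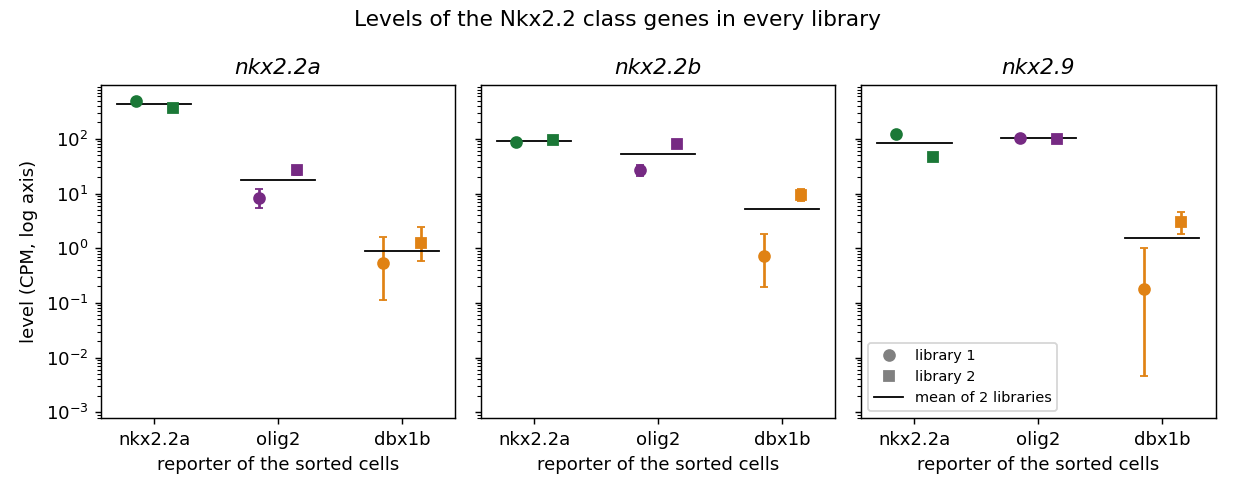
Level of each gene in every library, in CPM on a log axis, with libraries 1 and 2 as circles and squares, exact 95% Poisson intervals of the counts as bars and the mean of each sort as a line. nkx2.2a descends from nkx2.2a cells (mean 429 CPM) through olig2 cells (17.4 CPM) to dbx1b cells (0.904 CPM), the nkx2.9 libraries of nkx2.2a cells (mean 84.9 CPM) and olig2 cells (101.9 CPM) overlap, and all 3 genes are lowest in both dbx1b libraries.

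Against dbx1b cells, the p0 sort, all 3 genes were higher in nkx2.2a cells, and nkx2.2a passed the test over all genes. Its log2 fold change was 8.85 (SE 0.83, 95% interval 6.98 to 10.71, edgeR quasi-likelihood test, adjusted p = 0.0312). It was the only gene of 19129 that edgeR called in this comparison, which is 0.00523% of those tested. In edgeR, 1200 genes had an unadjusted p under 0.05. The log2 fold change of nkx2.9 was 5.72 (SE 1.11, interval 3.21 to 8.23, edgeR adjusted p = 0.291) and that of nkx2.2b was 4.13 (SE 1.12, interval 1.62 to 6.64, edgeR adjusted p = 0.565). Neither passed the adjusted threshold in this fit, and they ranked 35 and 155 by p. DESeq2 called 375 genes, among them nkx2.2a, nkx2.9 (DESeq2 adjusted p = 5.0e-07) and nkx2.2b (DESeq2 adjusted p = 0.0033), and edgeR with no filter on low counts called all 3 as well. At an unadjusted p under 0.05, 3 of 3 members were higher, against 3.61% of all genes higher and 2.67% lower. The libraries did not overlap for 3 of 3 members, against 19.1% of all genes separated in that direction. Both counts include nkx2.2a, whose regulatory sequence selected the nkx2.2a cells, whereas nkx2.2b and nkx2.9 were not used to select any cell. The nkx2.2a call was lost without nkx2.2a library 1 (log2 8.61, edgeR adjusted p = 0.125) and without composition scaling (8.88, edgeR adjusted p = 0.0613). Without dbx1b library 2 the log2 fold changes of nkx2.9 and nkx2.2b were 8.79 and 6.97, since library 1 alone then set the dbx1b level. Without olig2 library 2 nkx2.9 was called (5.71, edgeR adjusted p = 0.0474) and 65 genes were called in all.

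Against olig2 cells, the neighbouring pMN sort, nkx2.2a had the largest difference of the 3 genes. Its log2 fold change in nkx2.2a over olig2 cells was 4.62 (SE 0.67, 95% interval 3.11 to 6.14), and it ranked 2 by p among all genes, but it did not pass the adjusted threshold (edgeR adjusted p = 0.376). That of nkx2.2b was 0.77 (SE 0.99, interval -1.45 to 2.98, edgeR adjusted p = 0.879). That of nkx2.9 was -0.26 (SE 0.90, interval -2.29 to 1.76, edgeR adjusted p = 0.968). The intervals of nkx2.2b and nkx2.9 each include 0 as well as differences of more than 1 in log2 on either side of it, so equal levels are not shown. edgeR called 0 of 19129 genes in this comparison (0%), with 1673 at an unadjusted p under 0.05, and DESeq2 called 578. nkx2.2a was among the DESeq2 calls (DESeq2 adjusted p = 3.1e-09) and among those of edgeR with no filter, whereas nkx2.2b and nkx2.9 were in neither. Unadjusted, 1 of 3 members was higher and 0 were lower, against 6.12% and 2.62% of all genes, and 2 of 3 had separated libraries with the nkx2.2a cells higher, against 20.0% of all genes. The 1 higher member was nkx2.2a, whose regulatory sequence selected the nkx2.2a cells, and it is also among the 2 separated members. For nkx2.2b that separation was the narrow gap between 88.0 CPM in nkx2.2a library 1 and 80.4 CPM in olig2 library 2. Leaving out 1 library brought nkx2.2a past the threshold in 3 cases (without olig2 library 2, log2 5.72, edgeR adjusted p = 0.0256; without dbx1b library 1, 4.62 and 0.0127; without dbx1b library 2, 4.62 and 0.0304). Without nkx2.2a library 2 the nkx2.9 difference turned to 0.28.

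In olig2 over dbx1b cells, nkx2.9 had the largest difference of the 3 genes, with a log2 fold change of 5.98 (SE 1.13, 95% interval 3.44 to 8.52, edgeR adjusted p = 0.296). nkx2.2a followed with 4.23 (SE 0.70, interval 2.66 to 5.79, edgeR adjusted p = 0.236) and nkx2.2b with 3.36 (SE 1.08, interval 0.93 to 5.79, edgeR adjusted p = 0.461). The ranks by p were 28 for nkx2.9, 11 for nkx2.2a and 494 for nkx2.2b. edgeR called none of the 3, and 0 of 19129 genes in all (0%), with 1823 at an unadjusted p under 0.05. DESeq2 called 716 genes, among them nkx2.9 (DESeq2 adjusted p = 7.4e-08), nkx2.2a (DESeq2 adjusted p = 5.4e-07) and nkx2.2b (DESeq2 adjusted p = 0.021), and edgeR with no filter on low counts called all 3 as well. Unadjusted, 3 of 3 members were higher in olig2 cells, against 3.70% of all genes higher and 5.83% lower, and 3 of 3 had separated libraries, against 18.3% of all genes. Without dbx1b library 2, nkx2.9 was called (9.05, edgeR adjusted p = 0.0315) and nkx2.2b moved to 6.2. Without olig2 library 1, nkx2.2a was called (4.82, edgeR adjusted p = 0.0254), and without olig2 library 2 nkx2.2a and nkx2.2b stood at 3.11 and 2.32. The 3 comparisons share libraries and are not independent of each other.

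**Figure D2:**
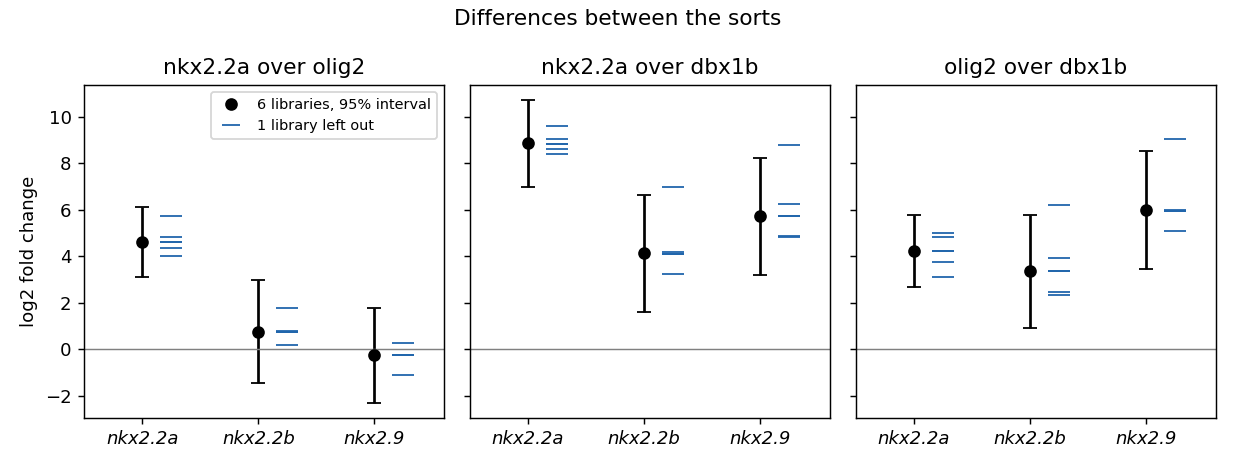
Log2 fold changes of the 3 genes in each comparison, with black points for the edgeR fit of all 6 libraries, bars for 95% intervals and blue ticks for fits with 1 library left out. The intervals of nkx2.2b and nkx2.9 span 0 in nkx2.2a over olig2 cells and lie above 0 in both comparisons with dbx1b cells, where leaving out a library moved nkx2.9 between 4.82 and 8.79 in nkx2.2a over dbx1b cells.

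These are bulk samples, in which fewer cells that express a gene and less RNA of it per cell cannot be told apart. The levels of nkx2.2b and nkx2.9 in olig2 cells can therefore be read only as levels of the sorted population.

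The make-up of the family within each library was set by length-corrected levels. The 3 genes together reached 410 and 247 FPKM in nkx2.2a cells, 78.8 and 118 FPKM in olig2 cells and 0.739 and 7.87 FPKM in dbx1b cells. In nkx2.2a cells, nkx2.2a made up 68.3% and 70.5% of that sum, nkx2.2b 13.0% and 19.4%, and nkx2.9 18.7% and 10.1%. In olig2 cells nkx2.9 was the main member with 75.7% and 49.9%, nkx2.2b made up 18.9% and 38.3%, and nkx2.2a 5.48% and 11.8%. In dbx1b cells nkx2.2b made up 51.0% and 69.3%, but of a sum that rests on 8 fragments in library 1 and 98 in library 2. Between nkx2.2a and olig2 cells the leading member was thus a different gene, and the same gene led in both libraries of each of these sorts. The lead of nkx2.2a was in cells that its own regulatory sequence selected, so it is no independent finding. Of nkx2.2b and nkx2.9 in nkx2.2a cells, nkx2.9 had the larger share in library 1 and nkx2.2b in library 2.

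Ratios between members within a library do not depend on how libraries are scaled. All ratios below have 1 fragment added to each gene. The length-corrected ratio of nkx2.9 to nkx2.2a was 0.274 and 0.144 in nkx2.2a cells, 13.4 and 4.19 in olig2 cells and 0.553 and 2.43 in dbx1b cells. In dbx1b library 1 only 1 fragment of nkx2.9 and 3 of nkx2.2a were counted, so the added fragments weigh heavily there. On the log2 scale, the mean of the nkx2.9 ratio was -2.33 in the 2 libraries of nkx2.2a cells and 1.56 in the other 4 libraries, a difference of -3.89 (two-sided exact permutation test, p = 0.133, Benjamini-Hochberg adjusted over 2 ratios 0.133). The ratio of nkx2.2b to nkx2.2a was 0.190 and 0.276 in nkx2.2a cells, 3.36 and 3.21 in olig2 cells and 1.33 and 7.37 in dbx1b cells. Its log2 mean was -2.13 in nkx2.2a cells and 1.68 in the other libraries, a difference of -3.81 (two-sided exact permutation test, p = 0.0667, adjusted 0.133). With 2 libraries against 4 the smallest p that the test can give is 0.0667, so neither ratio could pass 0.05. Both ratios were lower in both libraries of nkx2.2a cells than in any other library. Since nkx2.2a selected these cells, its own high level enters both ratios.

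**Figure D3:**
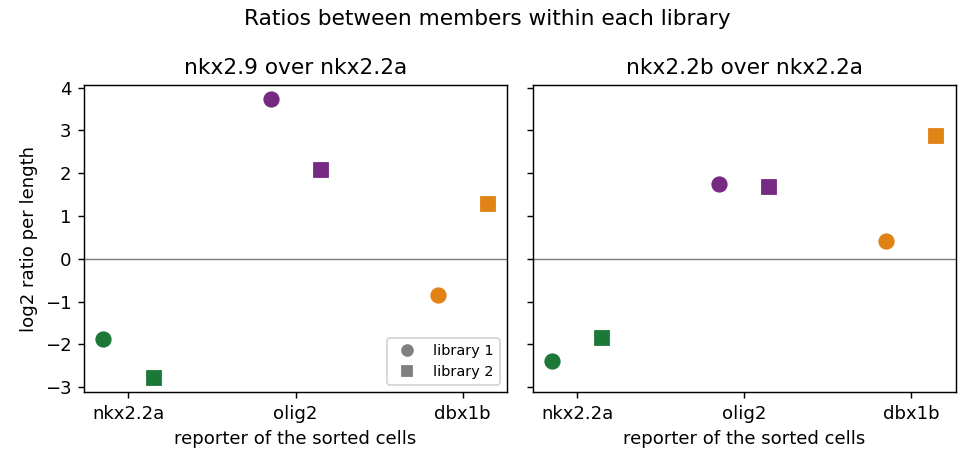
Log2 of the length-corrected ratios nkx2.9 over nkx2.2a and nkx2.2b over nkx2.2a in each library (1 fragment added to each gene), with libraries 1 and 2 as circles and squares. Both libraries of nkx2.2a cells lie below 0 in both panels (means -2.33 and -2.13), and every olig2 library lies above 0.

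The 2 counted transcripts of nkx2.2a, NM_131422.2 of 1791 bases and the predicted XM_009293243.1 of 2051 bases, took unequal shares in the sorts. The shorter one held 38.1% (95% Wilson interval 36.4% to 39.8%) of 3133 fragments and 38.8% (36.1% to 41.6%) of 1203 fragments in nkx2.2a cells. In olig2 cells it held 59.3% (40.7% to 75.5%) of 27 fragments and 55.4% (46.1% to 64.2%) of 112 fragments. In dbx1b cells it held 1 of 3 and 1 of 9 fragments, too few to place it (6.15% to 79.2%, and 1.99% to 43.5%). Both olig2 shares were above both shares of nkx2.2a cells, with the lower bound in olig2 library 1 under the upper bound in nkx2.2a library 2. The difference was not tested and is given as a description. The transcripts can share sequence, how reads matching both were assigned is not stated, and the labels do not say which nkx2.2a sequence the transgene transcribes. Its part in the nkx2.2a counts was not tested. nkx2.2a and nkx2.2b, as paralogues, could also share reads.

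**Figure D4:**
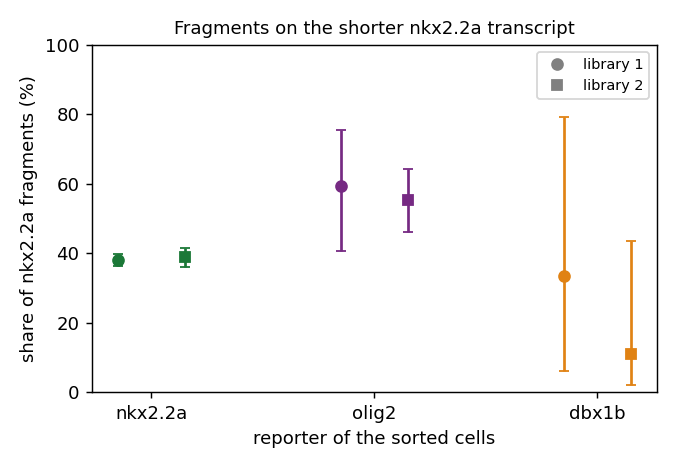
Share of nkx2.2a fragments on the shorter of its 2 counted transcripts in each library, in percent, with 95% Wilson intervals as bars and libraries 1 and 2 as circles and squares. The share was 38.1% and 38.8% in nkx2.2a cells and 59.3% and 55.4% in olig2 cells, and the dbx1b intervals are too wide to place.

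Genes of the pathway that induces the Nkx2.2 class were described beside the members, from lists of known genes. Of 22 Hedgehog ligands, receptors and response genes, 19 were tested and 0 were called in any comparison. In nkx2.2a over dbx1b cells, 3 were higher and 1 was lower at an unadjusted p under 0.05, with a median log2 fold change of 0.20 beside -0.0035 for all genes. In nkx2.2a over olig2 cells, 3 were higher and 0 lower (median 0.48 beside 0.05). In olig2 over dbx1b cells, 1 was higher and 5 were lower (median -0.41 beside -0.05). Of all genes tested, 3.61% were higher and 2.67% lower at that p in nkx2.2a over dbx1b cells. The shares were 6.12% and 2.62% in nkx2.2a over olig2 cells, and 3.70% and 5.83% in olig2 over dbx1b cells. The Sonic hedgehog ligand gene shha stood at 111 and 188 CPM in nkx2.2a cells, 32.3 and 21.1 CPM in olig2 cells and 26.1 and 45.0 CPM in dbx1b cells. gli1, a transcriptional target and effector of the pathway, had 166 and 295 CPM in nkx2.2a cells, 224 and 164 CPM in olig2 cells and 96.3 and 128 CPM in dbx1b cells. The nkx2.2a and olig2 sorts overlapped for gli1, as they did for nkx2.9.

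Among the 13 other NK homeobox genes found in the files (of 17 listed), 10 were tested and 0 called. In nkx2.2a over dbx1b cells 2 were higher at an unadjusted p under 0.05, against 3.61% of all genes. In olig2 over dbx1b cells 2 were higher, against 3.70%, and in nkx2.2a over olig2 cells 0, against 6.12%. In each comparison 0 were lower. The 2 higher genes were nkx6.1 and nkx6.2, which are ventral progenitor genes with domains wider than p3. nkx6.1 stood at 139 and 129 CPM in nkx2.2a cells, 295 and 182 CPM in olig2 cells and 27.2 and 19.9 CPM in dbx1b cells. Its log2 fold change was 2.51 (SE 0.45, edgeR adjusted p = 0.259) in nkx2.2a over dbx1b cells and 3.34 (SE 0.47, edgeR adjusted p = 0.146) in olig2 over dbx1b cells. Like nkx2.9, nkx6.1 had a higher mean in olig2 than in nkx2.2a cells, but without overlap of the libraries. nkx6.2 stood at 129 and 166 CPM in nkx2.2a cells, 135 and 145 CPM in olig2 cells, and 32.2 and 57.6 CPM in dbx1b cells. nkx2.7, a relative best known from the embryonic heart and pharynx, had 21.3 and 24.8 CPM in nkx2.2a cells, 2.74 and 5.45 CPM in olig2 cells and 4.50 and 10.7 CPM in dbx1b cells (log2 2.49 in nkx2.2a over olig2 cells, SE 1.13, edgeR adjusted p = 0.576).

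The genes that meet the Nkx2.2 class at its dorsal border or mark more dorsal domains numbered 9 in the files, all tested, with 0 called. In nkx2.2a over dbx1b cells 1 was higher and 4 were lower at an unadjusted p under 0.05 (median log2 -1.40 beside -0.0035 for all genes). In nkx2.2a over olig2 cells 1 was higher and 2 were lower (median -0.11), and in olig2 over dbx1b cells 1 was higher and 3 were lower (median -1.41). Of all genes tested, 3.61% were higher and 2.67% lower in nkx2.2a over dbx1b cells. The shares were 6.12% and 2.62% in nkx2.2a over olig2 cells, and 3.70% and 5.83% in olig2 over dbx1b cells. olig2 and dbx1b are in this list and selected 2 of the sorts. pax6a, whose counterpart Pax6 opposes Nkx2.2 in mouse and chick, stood at 32.7 and 27.5 CPM in nkx2.2a cells, 132 and 156 CPM in olig2 cells and 163 and 142 CPM in dbx1b cells. It was lower in both libraries of nkx2.2a cells than in any other library, with log2 fold changes of -2.26 (SE 0.44, edgeR adjusted p = 0.376) over olig2 cells and -2.34 (SE 0.44, edgeR adjusted p = 0.291) over dbx1b cells. Between nkx2.2a and olig2 cells, the libraries of nkx2.2a were separated in the opposite direction and those of nkx2.9 overlapped. pax6b, the other Pax6 gene, had 134 and 53.5 CPM in nkx2.2a cells, 112 and 89.6 CPM in olig2 cells and 189 and 88.5 CPM in dbx1b cells, with all 3 sorts overlapping. olig2 itself stood at 19.3 and 70.5 CPM in nkx2.2a cells and 1.80 and 4.09 CPM in dbx1b cells. irx3a, a progenitor gene of domains dorsal to pMN, stood at 59.5 and 68.3 CPM in nkx2.2a cells, 64.5 and 62.3 CPM in olig2 cells and 165 and 173 CPM in dbx1b cells. Its paralogue irx3b was instead highest in both olig2 libraries. irx3b stood at 77.5 and 126 CPM in nkx2.2a cells, 191 and 147 CPM in olig2 cells and 130 and 107 CPM in dbx1b cells.

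Of 15 genes of V3 and Kolmer-Agduhr neurons, 11 were tested and 0 were called. At an unadjusted p under 0.05, 3 were higher in nkx2.2a over dbx1b cells (median log2 0.91), 1 in nkx2.2a over olig2 cells (0.64) and 2 in olig2 over dbx1b cells (0.29), and 0 were lower. Of all genes tested, 3.61%, 6.12% and 3.70% were higher, in the same order. sox1b, a gene of Kolmer-Agduhr cells in zebrafish and of neural progenitors, stood at 92.5 and 101 CPM in nkx2.2a cells, 19.2 and 11.1 CPM in olig2 cells and 2.34 and 7.89 CPM in dbx1b cells (log2 4.23 in nkx2.2a over dbx1b cells, SE 0.84, edgeR adjusted p = 0.291). Its order of sorts was that of nkx2.2a. gata2a, a zinc finger gene of these neurons, stood at 30.5 and 71.1 CPM in nkx2.2a cells, 14.9 and 25.6 CPM in olig2 cells, and 5.22 and 17.6 CPM in dbx1b cells. gata3, of the same list, stood at 70.1 and 57.2 CPM, 41.4 and 40.1 CPM, and 14.0 and 53.8 CPM in the same order. tal1, also of this list, was instead lower in both nkx2.2a libraries than in both dbx1b libraries. It stood at 12.2 and 11.5 CPM in nkx2.2a cells, 9.13 and 29.4 CPM in olig2 cells, and 14.2 and 17.2 CPM in dbx1b cells. The V3 gene sim1a, named here after its values were seen, stood at 6.32 and 2.72 CPM in nkx2.2a cells, 23.7 and 30.1 CPM in olig2 cells and 1.26 and 5.36 CPM in dbx1b cells. olig3 was likewise highest in an olig2 library, with 12.2 and 26.0 CPM in nkx2.2a cells, 61.2 and 22.0 CPM in olig2 cells, and 5.40 and 1.55 CPM in dbx1b cells. The vesicular glutamate transporter genes slc17a6a and slc17a6b, which mark mature V3 neurons, were at or under 0.605 CPM in every library. Of 13 listed Groucho family genes 3 were in the files, and 0 of these were called. The long corepressor genes tle3a and tle3b had at least 90.4 CPM in every library, while aes, a short Groucho relative that lacks the WD repeats, had 18.6 and 27.2 CPM in nkx2.2a cells, 1.83 and 0 CPM in olig2 cells and 2.88 and 11.3 CPM in dbx1b cells.

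Markers of the floor plate and of other cells that the nkx2.2a gate could hold were summed in each library. The floor plate is the tissue that p3 adjoins, but zebrafish Nkx2.2 class cells are also called the lateral floor plate. This list therefore cannot set p3 cells apart from floor plate cells. Of 13 floor plate genes, 12 were tested with 0 called. In nkx2.2a over olig2 cells 8 were higher and 0 lower at an unadjusted p under 0.05 (median log2 2.14). In nkx2.2a over dbx1b cells 6 were higher and 0 lower (1.76), and in olig2 over dbx1b cells 1 was higher and 2 were lower (-0.46). Of all genes tested, 6.12%, 3.61% and 3.70% were higher and 2.62%, 2.67% and 5.83% lower, in the same order. The floor plate genes summed to 1588 and 1890 CPM in nkx2.2a cells, 609 and 525 CPM in olig2 cells and 719 and 779 CPM in dbx1b cells. sulf1 and col2a1a were the highest genes of the list in both nkx2.2a and dbx1b cells. sulf1 stood at 313 and 420 CPM in nkx2.2a cells, 79.4 and 83.9 CPM in olig2 cells and 313 and 328 CPM in dbx1b cells. col2a1a stood at 296 and 531 CPM, 70.6 and 120 CPM, and 230 and 154 CPM in the same order. foxa, a forkhead gene of the floor plate, stood at 223 and 201 CPM in nkx2.2a cells, 66.3 and 95.5 CPM in olig2 cells and 14.9 and 54.0 CPM in dbx1b cells. ntn1b, a netrin gene of the ventral midline, stood at 135 and 126 CPM in nkx2.2a cells, 106 and 75.4 CPM in olig2 cells, and 11.5 and 23.5 CPM in dbx1b cells. Of the 12 tested genes, 11 had a positive log2 fold change in nkx2.2a over olig2 cells, 12 in nkx2.2a over dbx1b cells and 5 in olig2 over dbx1b cells. The median log2 fold change over all genes was 0.05, -0.0035 and -0.05, in the same order. foxj1a stood at 36.3 and 20.6 CPM in nkx2.2a cells, 81.9 and 30.8 CPM in olig2 cells and 0 and 22.4 CPM in dbx1b cells. The part of floor plate cells in the nkx2.2a levels was not tested.

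Hatching gland genes had the largest median difference of the 12 lists in both comparisons of nkx2.2a cells. The hatching gland arises from prechordal mesoderm and secretes the proteases that open the egg shell. All 4 genes of this list were higher in nkx2.2a cells at an unadjusted p under 0.05, both over olig2 cells (median log2 4.21) and over dbx1b cells (6.63), and 0 were called. In olig2 over dbx1b cells 1 was higher (median 2.61). Of all genes tested, 6.12%, 3.61% and 3.70% were higher, in the same order of comparisons. The hatching gland genes summed to 1182 and 652 CPM in nkx2.2a cells, 3.35 and 99.3 CPM in olig2 cells and 0.720 and 15.9 CPM in dbx1b cells. In each sort, the library with the higher hatching gland sum also had the higher nkx2.2a level: library 1 of nkx2.2a cells, library 2 of olig2 cells and library 2 of dbx1b cells. The lists were chosen with earlier results of these data known. he1a, he1b and ctsl1b were also the profiles nearest to nkx2.2a over these same libraries, so this match is no independent finding. nkx2.2b was also higher in library 2 of olig2 and of dbx1b cells, but not in library 1 of nkx2.2a cells. nkx2.9 was higher in library 1 of nkx2.2a cells and library 2 of dbx1b cells, and nearly equal in the olig2 libraries. The part of hatching gland cells in the levels of the 3 genes was not tested.

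The remaining marker lists had 0 genes called. At an unadjusted p under 0.05, 6.12% of all genes were higher and 2.62% lower in nkx2.2a over olig2 cells. The shares were 3.61% and 2.67% in nkx2.2a over dbx1b cells, and 3.70% and 5.83% in olig2 over dbx1b cells. Epidermal genes summed to 1670 and 1816 CPM in nkx2.2a cells, 1139 and 933 CPM in olig2 cells and 833 and 610 CPM in dbx1b cells, with 3 of 6 higher in nkx2.2a cells at an unadjusted p under 0.05 in each of its comparisons. Forebrain genes, from a region that the dissection removed, summed to 157 and 156 CPM in nkx2.2a cells, 107 and 49.3 CPM in olig2 cells, and 24.7 and 55.1 CPM in dbx1b cells, and 2 of 6 were higher in each comparison of nkx2.2a cells. Paraxial and tailbud mesoderm genes summed to 89.4 and 298 CPM in nkx2.2a cells, 143 and 87.5 CPM in olig2 cells, and 1134 and 1093 CPM in dbx1b cells. At an unadjusted p under 0.05, 4 of these 5 were lower in nkx2.2a over dbx1b cells and 4 in olig2 over dbx1b cells. Notochord genes summed to 191 and 205 CPM in nkx2.2a cells, 93.4 and 103 CPM in olig2 cells, and 188 and 287 CPM in dbx1b cells, with 1 of 4 higher in each comparison and 1 lower in both comparisons with dbx1b cells. Nkx2.2 also acts in the endocrine pancreas, and 11 endoderm and pancreas genes summed to 132 and 103 CPM in nkx2.2a cells, 76.7 and 71.3 CPM in olig2 cells, and 106 and 148 CPM in dbx1b cells. Of its defining genes, ins, sst2 and sox32 were at or under 0.564 CPM in every library, but pdx1 reached 13.0 CPM in nkx2.2a library 2, insb 8.74 CPM in dbx1b library 2, gcga 3.35 CPM in olig2 library 1 and sox17 2.96 CPM in dbx1b library 2. foxa3 stood at 57.3 and 16.9 CPM in nkx2.2a cells, 37.1 and 16.4 CPM in olig2 cells and 55.6 and 115 CPM in dbx1b cells. insm1a stood at 35.8 and 39.3 CPM, 9.43 and 14.9 CPM, and 15.8 and 4.09 CPM in the same order. Of the 7 genes of the list that were tested, 0 had an unadjusted p under 0.05 in any comparison. The part of these cells in the levels of the 3 members was not tested.

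**Figure D5:**
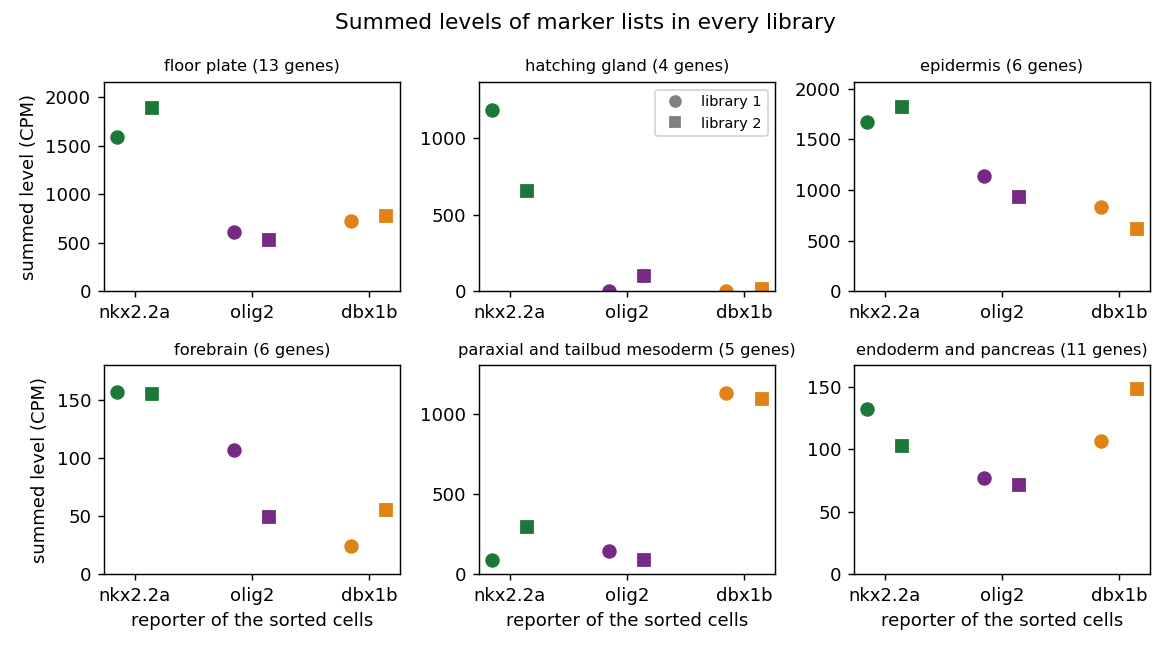
Summed level of the genes of 6 marker lists in every library, in CPM from 0, with libraries 1 and 2 as circles and squares. Floor plate genes (1588 and 1890 CPM) and hatching gland genes (1182 and 652 CPM) are highest in nkx2.2a cells, and mesoderm genes are highest in dbx1b cells (1134 and 1093 CPM).

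The genes whose profile over the 6 libraries was nearest to each member were found among 9385 named genes by the root mean square difference of log2 CPM after each gene was centred on its own mean. Nearest to nkx2.2a were he1a (1.09), he1b (1.37) and ctsl1b (1.37), which encode hatching gland proteases, then spag16 (1.48), a gene of motile cilia, and marveld2b (1.50), a gene of tight junctions. he1a stood at 359 and 242 CPM in nkx2.2a cells, 1.22 and 24.9 CPM in olig2 cells and 0.180 and 2.96 CPM in dbx1b cells. It was picked as the nearest profile over these same 6 libraries, so its likeness to nkx2.2a follows from that choice. At this measure nkx2.2b (1.93) and nkx2.9 (2.29) would stand at places 23 and 59.

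nkx2.2b was closest to the cytochrome P450 gene cyp2v1 (0.480), then to znf536 (0.696), anxa1a (0.722), pih1d2 (0.783) and gapdh (0.792). cyp2v1 stood at 8.05 and 13.3 CPM in nkx2.2a cells, 3.04 and 9.48 CPM in olig2 cells and 0 and 2.11 CPM in dbx1b cells. For nkx2.9 the nearest were inab (0.898), a neuronal intermediate filament gene, svopl (1.11), ptpn23b (1.15), cfap46 (1.18), a gene of cilia, and ncs1a (1.21), a neuronal calcium sensor gene. inab stood at 16.6 and 9.38 CPM in nkx2.2a cells, 40.2 and 25.6 CPM in olig2 cells and 0.180 and 0.705 CPM in dbx1b cells. nkx2.2b and nkx2.9 were nearer to each other (1.24) than either was to nkx2.2a, at place 6 of the nkx2.9 profile and place 30 of the nkx2.2b profile. These are descriptions over 6 libraries that differ in depth and sort, and several of these genes had few fragments in dbx1b cells.

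In the RefSeq gene table of assembly GRCz12tu, which is not the build named by the submitters and was used only for the order of genes, nkx2.2a and nkx2.9 lie on chromosome 17 and nkx2.2b on chromosome 20. Each has a Pax gene or another NK2 gene beside it. pax1a, a gene of the sclerotome next to nkx2.2a, stood at 86.2 and 213 CPM in nkx2.2a cells, 0 and 0.474 CPM in olig2 cells and 0.540 and 0 CPM in dbx1b cells (edgeR adjusted p = 0.376 in nkx2.2a over olig2 cells and 0.239 in nkx2.2a over dbx1b cells). pax9, a gene of sclerotome and pharynx next to nkx2.9, stood at 8.05 and 42.3 CPM in nkx2.2a cells and at 0 in all 4 other libraries (edgeR adjusted p = 0.518 and 0.424). Unlike nkx2.9 itself, pax9 was not detected in olig2 cells at this depth, where 3 fragments are worth at most 0.922 CPM before TMM scaling. Both Pax genes were higher in library 2 of nkx2.2a cells, whereas nkx2.2a and nkx2.9 were higher in library 1.

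The other near neighbours had higher edgeR adjusted p than both Pax genes in both comparisons of nkx2.2a cells. foxa2, a floor plate gene beyond pax1a, stood at 50.2 and 86.2 CPM in nkx2.2a cells, 21.9 and 6.87 CPM in olig2 cells and 9.72 and 35.1 CPM in dbx1b cells (log2 2.25 over olig2 cells, edgeR adjusted p = 0.561). On the other side of nkx2.2a, nkx2.4a and zgc:162576 had edgeR adjusted p of 0.735 or more in both comparisons of nkx2.2a cells. nkx2.1, beside nkx2.9, stood at 34.4 and 38.7 CPM in nkx2.2a cells, 12.8 and 0 CPM in olig2 cells and 10.4 and 24.5 CPM in dbx1b cells. mbip and slc25a21 completed the neighbours of nkx2.9 and had edgeR adjusted p of at least 0.683 in both comparisons of nkx2.2a cells. Around nkx2.2b, nkx2.4b, xrn2, mgst3 and LOC562098 had adjusted p of 0.644 or more in edgeR in the same comparisons. xrn2, an exoribonuclease gene, stood at 211 and 210 CPM in nkx2.2a cells, 129 and 144 CPM in olig2 cells and 204 and 204 CPM in dbx1b cells. Both of its olig2 libraries were thus below every other library, whereas nkx2.2b was lowest in dbx1b cells.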

How the data were processed

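RNA from sorted cells was sequenced in 6 libraries. As deposited, the values are raw counts of mapped reads for each RefSeq transcript; every count is even, so both mates of a fragment were counted. FastQC 0.11.3, Bowtie 1.1.1 and the build GRCz10 appear in the submitters' processing notes without their roles. The treatments of reads with several matches and of strand were not given in the sources used here. Reads with no transcript (66.6% to 80.6% per library) were left out.

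Counts were summed per symbol and tested with edgeR 4.0.16 (R 4.3.3): quasi-likelihood fit, filterByExpr (minimum count 10), TMM, 1 mean per group over 6 libraries, 3 residual degrees of freedom, and Benjamini-Hochberg adjustment over 19129 genes with a threshold of 0.05. Standard errors and intervals derive from the F statistic. FPKM used the mean length of a symbol's transcripts and mapped fragments without TMM. The fit was also run on counts simulated from its own estimates of spread, which cannot show that it suits these data. Libraries of a group differed beyond counting noise (a chi-square of 39.6 to 45.4 per degree of freedom), so none was treated as a repeat deposit of another; this does not show that they come from separate pools. Of 30677 symbols, 22867 matched the RefSeq table.

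The members and gene lists were chosen with earlier results of these data known. Named genes were the members, the 5 nearest profiles of each (mean of 5 CPM or more, prior count 2, no clone names), the 2 nearest tested neighbours on each side, and examples among up to 4 genes per list with the lowest unadjusted p in nkx2.2a over dbx1b cells. Named beyond that rule, after their values were seen, were pax6b, irx3b, sim1a, tal1, gata3, the slc17a6 genes, foxj1a, sulf1, col2a1a, ins, insb, sst2, pdx1 and sox32. The nkx2.2b ratio was also added then. Alternatives were other scalings (RLE, or library size alone), DESeq2 1.42.0, no filter, a replicate block, only the 4 libraries compared, fragments in place of reads, other pseudocounts for the ratio, and leaving out each library.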

Additional observations from a re-analysis of the deposited data

How the results depend on the processing

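Of 117 member results under alternatives, 96 kept direction and side of the threshold, 18 gained a call, 2 lost one and 1 turned sign. DESeq2 called 578 genes in nkx2.2a over olig2 cells, 375 in nkx2.2a over dbx1b cells and 716 in olig2 over dbx1b cells, and with no filter (27024 genes tested) edgeR called 233, 238 and 292. DESeq2 and no filter also called nkx2.2a in nkx2.2a over olig2 cells (log2 4.60 and 4.61) and in olig2 over dbx1b cells (4.31 and 4.25). Both called nkx2.2b in nkx2.2a over dbx1b cells (4.18 and 4.14) and in olig2 over dbx1b cells (3.43 and 3.39), and nkx2.9 likewise (5.77 and 5.73, then 6.06 and 6.01). In nkx2.2a over dbx1b cells, no composition scaling called 0 genes (nkx2.2a 8.88, edgeR adjusted p = 0.0613) and only the 4 libraries compared called 2. In olig2 over dbx1b cells, the replicate block called 3 genes and fragments in place of reads 2. The cause of these changes was not tested.

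Leaving out 1 library, which leaves a sort with 1 library assumed to vary like the others, gave 0 to 6, 0 to 65 and 0 to 7 called genes in the 3 comparisons. nkx2.2a ranged from 4.01 to 5.72, from 8.37 to 9.61 and from 3.11 to 4.99, nkx2.2b from 0.17 to 1.79, from 3.23 to 6.97 and from 2.32 to 6.2, and nkx2.9 from -1.11 to 0.28 (positive only without nkx2.2a library 2), from 4.82 to 8.79 and from 5.08 to 9.05. The nkx2.9 to nkx2.2a ratio difference ranged from -4.69 to -3.16, and from -3.92 to -3.85 with other pseudocounts. Over all genes, deviations of libraries with the same replicate number were nearly uncorrelated (0.0235, -0.0142 and 0.0153). This measure cannot show pairing that touches only a few genes. With the replicate numbers as a block, 0, 1 and 3 genes were called, and nkx2.2a in nkx2.2a over dbx1b cells was 9.05 (edgeR adjusted p = 0.00557). The dbx1b levels rest on few fragments: 12, 72 and 22 of nkx2.2a, nkx2.2b and nkx2.9. The dbx1b libraries were nevertheless the deepest, with 5902983 and 6933417 mapped fragments, against at most 5828858 in the other sorts.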
